A study of Mus musculus with 4 samples.

Results

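Wnt proteins are secreted signals, and 40 genes of their pathway were followed here in mouse forebrain precursors: 5 Wnt ligands, 3 R-spondins and the R-spondin receptor Lgr4, 10 Frizzled receptors, co-receptors, dishevelled proteins, the destruction complex with beta-catenin, TCF/LEF factors and inhibitors. The genes were chosen by name, and each was represented by the brightest of the probe sets annotated to it alone, that is, of the sets of short array probes designed against a transcript. All 40 had such a probe set, among 18193 genes in all, and 35 of the 40 were bright enough to be tested, among 12952 genes tested. The 5 that were not are Lrp5, Ror2, Dvl3, Dkk1 and Wif1.

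Total RNA came from neuroepithelial cells, the dividing precursors of the forebrain, taken from the telencephalon of ICR mouse embryos. The E14.5 group was taken at embryonic day 14.5 and cultured for 4 days, and the E11.5 group was taken at embryonic day 11.5 and cultured for 1 day. Both were grown with 10 ng/ml basic FGF, which keeps such precursors dividing, on polyornithine and fibronectin, and each group had 2 arrays. Embryonic age and days in culture differ together and cannot be told apart, and whether the 2 arrays of a group hold RNA of different cultures or embryos is not stated. The p-values therefore measure only how far these arrays spread, pooled largely over probe sets of like signal, and that spread may be technical.

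A Wnt ligand binds a Frizzled receptor and the co-receptor Lrp5 or Lrp6. Through dishevelled proteins this stops a complex of Axin, Apc and Gsk3b from destroying beta-catenin, which then acts with TCF/LEF factors on target genes. R-spondins bind Lgr receptors and keep Frizzleds on the cell surface, while Sfrp, Dkk and Wif proteins block the signal outside the cell. In the embryonic telencephalon the pathway is known for patterning the medial wall, where the cortical hem secretes several Wnts, and for keeping precursors dividing.

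Array intensities before scaling were uneven, with 2% trimmed means of 154 and 103 on the E14.5 arrays and 187 and 252 on the E11.5 arrays. All signals below were scaled to a common trimmed mean of 174, so higher and lower mean relative to the bulk of the signal on an array. Log2 signals correlated at r = 0.969 between the E14.5 arrays and 0.975 between the E11.5 arrays; these correlations run over probe sets, and probe sets are not independent replicates. No probe set used here was listed at 0. Progenitor markers (Sox2, Nes, Pax6, Hes1, Hes5, Vim, Fabp7 and Prom1) were present in both groups, with summed scaled signals of 27698 and 29176 at E14.5 and 21109 and 19297 at E11.5. They did not move as 1: of the 8, Sox2, Hes5 and Fabp7 were higher at E14.5, Pax6 was lower and 4 did not pass. Called were 50%, against 27.8% of all tested genes. Pax6 had means of 283 at E14.5 and 507 at E11.5. Of 11 markers of vessel cells and pericytes 5 were tested, with Plvap higher at E14.5 (means of 91.2 at E14.5 and 10.0 at E11.5), Egfl7 lower (39.0 and 109 in the same order) and Kdr, Pdgfrb and Rgs5 not passing. Plvap was bright enough to be tested only through its E14.5 signal, so its call is a description. The 11 markers had summed signals of 313 and 271 at E14.5 and 442 and 287 at E11.5, and Pecam1, Tie1 and Kcnj8 lay below the pseudocount of 12.8 (the constant added to every signal before log2) in both groups. With 2 arrays against 2, a permutation of the labels cannot give a two-sided p below 0.333, so differences were tested in a limma fit across all probe sets. Differences below are log2 values on the scale of signal plus pseudocount, E14.5 minus E11.5, ± SE with n = 2 arrays per group, and adjusted p-values are limma's after Benjamini-Hochberg adjustment over all probe sets tested. A gene passed the test at an adjusted p under 0.05.

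Among the 35 tested Wnt pathway genes 14 passed, which is 40%, where 27.8% of all tested genes did. Of these 10 were lower at E14.5, or 28.6%, against 13.6% of all tested genes, and 4 were higher, or 11.4%, against 14.3%. Changes of at least 2-fold were reached by 8 of the lower and 2 of the higher genes (12.7% of all tested genes, both directions together). The median difference over the 35 genes was -0.04, beside 0.03 for all tested genes. In 27 of the 35 the arrays of the groups did not overlap, which was so for 65.6% of all tested genes. The genes that were lower were Wnt8b, Rspo1, Rspo2, Rspo3, Lgr4, Fzd1, Fzd3, Fzd8, Lef1 and Sfrp1, and those that were higher were Wnt7b, Fzd9, Tcf7l1 and Dkk3. Wnt8b and the 3 R-spondins entered the test only through their signal at E11.5, since their E14.5 means lay under the filter of 27.3. Once tested, their E14.5 means thus had to be the lower ones, though not by enough to pass. The counts above include these genes and are descriptions.

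**Figure D1:**
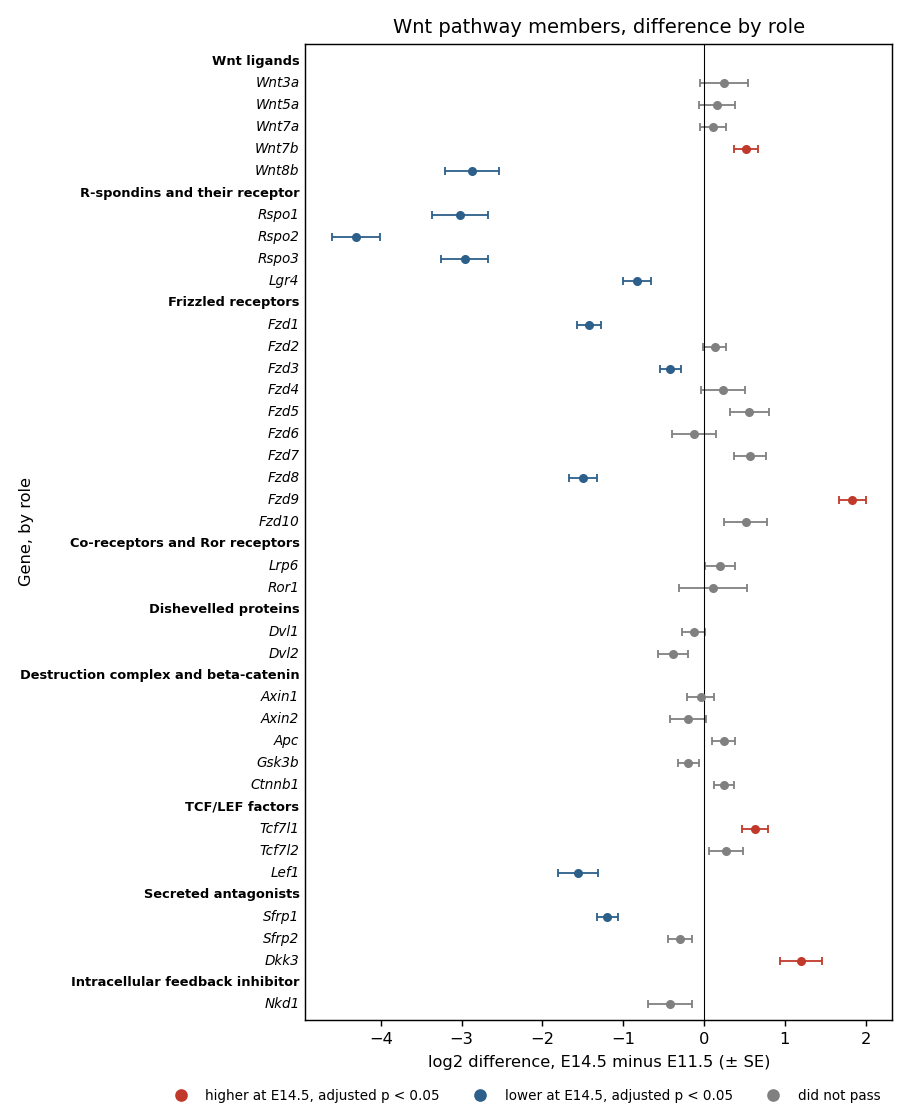
Differences of the 35 tested Wnt pathway genes, grouped by role. Each point is the log2 difference, E14.5 minus E11.5, with its SE from the limma fit (2 arrays per group). R-spondins and Wnt8b lie at -2.87 or below, Fzd9 at 1.84, and the genes of the destruction complex between -0.20 and 0.25.

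Ligands differed by kind. Wnt8b, a ligand of the medial telencephalon, fell at E14.5, and Wnt7b rose. Wnt8b had scaled signals of 18.7 and 5.93 on the E14.5 arrays, against 137 and 198 on the E11.5 arrays. Both E14.5 arrays lay far under both E11.5 arrays, and the E14.5 mean of 12.3 was under the pseudocount (-2.87 ± 0.34, adjusted p = 0.00022). The size of that difference depends on the pseudocount, with -3.75 at an eighth of it and -1.94 when the median of all values was added. A dimmer Wnt8b probe set, too dim to be tested, had means of 2.32 at E14.5 and 47.8 at E11.5. Another, also too dim, lay below the pseudocount in both groups, with overlapping arrays and means of 3.73 and 4.71 in the same order.

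Wnt7b, a ligand of the cortical wall, had signals of 942 and 852 at E14.5 and of 563 and 688 at E11.5. Its groups did not overlap, and its mean was 1.43-fold higher at E14.5 (0.52 ± 0.15, adjusted p = 0.030). The call was lost without E14.5 replicate 1 (0.45), without E11.5 replicate 1 (0.37), with the mean of its probe sets (0.37), without a filter and without a variance trend. The second Wnt7b probe set, with 327 and 178 at E14.5 and 174 and 246 at E11.5, had overlapping groups and did not pass (0.21 ± 0.27). The close relative Wnt7a had 377 and 400 at E14.5 and 389 and 331 at E11.5, groups that overlap. Wnt7a did not pass the test (0.11 ± 0.16). Wnt5a, which signals largely without beta-catenin, had means of 96.8 at E14.5 and 85.3 at E11.5 (0.16 ± 0.22). Wnt3a, a ligand of the cortical hem, had means of 60.3 and 49.6 in the same order (0.25 ± 0.29). Neither of these passed the test.

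R-spondins were lower at E14.5, as was Lgr4, 1 of their receptors. The calls of the 3 R-spondins, tested only through their E11.5 signal, are a description. Rspo2 had the largest difference of the 35 genes, with signals of 5.87 and 4.37 at E14.5, against 265 and 443 at E11.5 (-4.31 ± 0.29, adjusted p = 7.6e-06). Rspo1 had 5.50 and 25.3 at E14.5, against 189 and 216 at E11.5 (-3.02 ± 0.35, adjusted p = 0.00020). Rspo3 had 24.0 and 10.2 at E14.5, against 201 and 227 at E11.5 (-2.96 ± 0.29, adjusted p = 7.1e-05). In their brightest probe sets all 3 ligands were thus low on both E14.5 arrays and high on both E11.5 arrays, with no overlap. A second Rspo2 probe set, too dim to be tested, ran the other way in its means, 22.1 at E14.5 and 12.2 at E11.5, with overlapping arrays. That of Rspo3, also too dim, had means of 7.55 and 36.3 in the same order. Between a pseudocount at an eighth and one at the median the differences ran from -5.69 to -3.03 for Rspo2, from -3.88 to -2.11 for Rspo1 and from -3.63 to -2.12 for Rspo3. Lgr4 kept a clear signal in both groups, with 194 and 221 at E14.5 and 411 and 347 at E11.5, a 1.83-fold lower mean at E14.5 (-0.83 ± 0.17, adjusted p = 0.0058). A second Lgr4 probe set, too dim to be tested, had means of 18.9 at E14.5 and 16.1 at E11.5, with overlapping arrays. Outside the members, the Lgr receptors Lgr5 (0.33 ± 0.33) and Lgr6 (0.09 ± 0.26), named here after their values were seen, did not pass. Their arrays overlapped between groups.

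**Figure D2:**
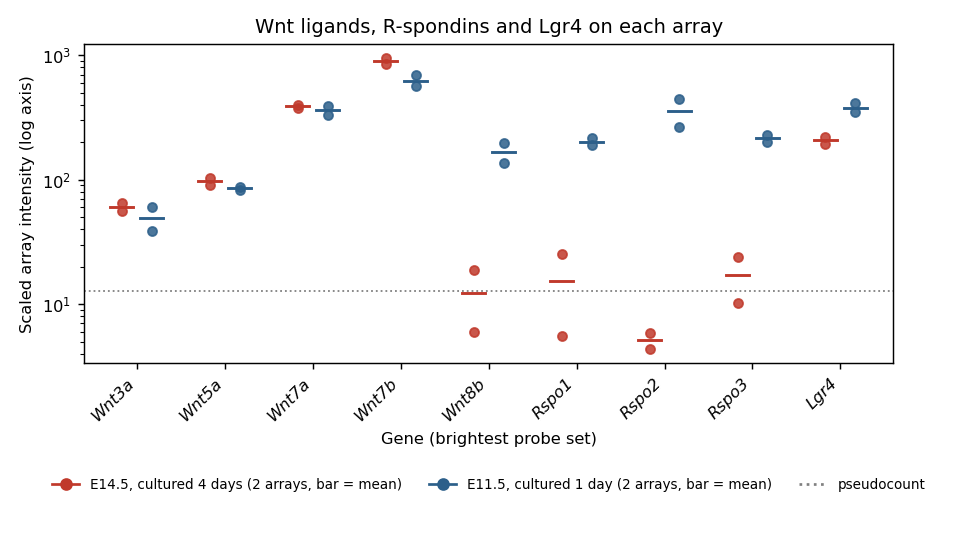
Scaled intensity of Wnt ligands, R-spondins and Lgr4 on each of the 4 arrays, on a log axis, with bars at the group means and a dotted line at the pseudocount of 12.8. Wnt8b and the 3 R-spondins lie between 4.37 and 25.3 on the E14.5 arrays and between 137 and 443 on the E11.5 arrays. Heights of different genes cannot be compared, since each probe set binds with its own strength.

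Markers of the cortical hem and medial telencephalon outside the pathway differed in part. Of 17 such markers 12 were tested, of which 6 were lower at E14.5 (Zic1, Zic2, Zic4, Dmrt3, Emx2 and Trp73), or 50% against 13.6% of all tested genes, and none was higher. The summed signal of the 15 with a probe set was 1515 and 1718 at E14.5, against 4026 and 3644 at E11.5. Zic1 made up most of the gap, and without it the sums were 1084 and 1279 at E14.5, against 1613 and 1635 at E11.5. Bmp4, Bmp7 and Msx1, signals and a factor of the dorsal midline, had overlapping groups and did not pass. Lmx1a, a factor that defines the hem, had means of 34.8 at E14.5 and 30.2 at E11.5 and did not pass the test. Bmp6 lay below the pseudocount in both groups. Meningeal and mesenchymal markers had 3 of 7 tested members lower (Col1a2, Col3a1 and Lum), or 42.9%, and none higher, with sums of 768 and 662 at E14.5 and 1289 and 1276 at E11.5. Choroid plexus markers had 1 of 5 tested members lower (Otx2) and none higher, or 20% called, below the 27.8% of all tested genes. Their sums were 245 and 186 at E14.5 and 558 and 502 at E11.5, but 174 and 121 at E14.5 and 182 and 222 at E11.5 without Otx2, and Kcne2 lay below the pseudocount in both groups. The part of any of these cell populations in the falls of Wnt8b and the R-spondins was not tested, and in such bulk RNA fewer cells of a type and less RNA per cell cannot be told apart.

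The promoters of the members that moved most are shown for Wnt8b and Rspo1, as the 250 bases before the annotated start, 5′ to 3′ in the direction of the gene, from RefSeq on GRCm38.p6. Those of Rspo2, Rspo3 and Wnt7b were not used here. Wnt8b lies at chr19:44493222-44493471 on the plus strand and Rspo1 at chr4:124986180-124986429 on the plus strand. The windows were searched on both strands for CTTTGAT and CTTTGTT, and later also for CTTTGAA and CTTTGTA, letters that TCF/LEF factors are known to bind. A match would be in capitals, and neither window has one.
Wnt8b: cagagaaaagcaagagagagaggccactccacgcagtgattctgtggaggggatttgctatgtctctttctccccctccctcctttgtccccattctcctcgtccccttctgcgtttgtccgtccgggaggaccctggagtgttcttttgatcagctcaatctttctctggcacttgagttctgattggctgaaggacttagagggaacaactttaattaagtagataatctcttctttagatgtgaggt
Rspo1: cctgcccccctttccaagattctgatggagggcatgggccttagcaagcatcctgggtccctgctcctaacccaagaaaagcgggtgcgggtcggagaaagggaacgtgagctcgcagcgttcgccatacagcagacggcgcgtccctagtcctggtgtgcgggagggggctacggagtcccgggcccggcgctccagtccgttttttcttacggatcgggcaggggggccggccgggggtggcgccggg

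Frizzled receptors split, with Fzd9 higher at E14.5, Fzd1, Fzd3 and Fzd8 lower, and 6 of the 10 not passing the test. Called were 40%, against 27.8% of all tested genes. Fzd9 had signals of 609 and 514 at E14.5, against 152 and 143 at E11.5. This was the largest rise among the 35 genes, 3.81-fold in the means (1.84 ± 0.17, adjusted p = 4.3e-05), and the groups lay well apart. Fzd8 had 119 and 137 at E14.5, against 372 and 396 at E11.5, with means of 128 and 384 in the same order (-1.50 ± 0.17, adjusted p = 0.00020). Its dimmer probe set, with means of 15.2 at E14.5 and 79.7 at E11.5, was tested only through its E11.5 signal. Fzd1 had 334 and 294 at E14.5, against 810 and 914 at E11.5, a 2.75-fold lower mean (-1.42 ± 0.15, adjusted p = 0.00011). Its other probe set was lower as well (-1.05 ± 0.26).

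Fzd3, a receptor known for axon guidance, had 1315 and 1299 at E14.5 and 1624 and 1878 at E11.5. Its groups did not overlap, but the difference was small (-0.41 ± 0.13, adjusted p = 0.041). The call was lost under 7 of the 13 alternatives: median scaling (-0.35), no filter, no variance trend, probe sets averaged (-0.39), and without E14.5 replicate 1 (-0.42), E14.5 replicate 2 (-0.41) or E11.5 replicate 2 (-0.31). Of its 5 tested probe sets 2 passed, both as lower, and all 5 had a negative difference.

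Among the Frizzleds that did not pass, Fzd7 came nearest, with 217 and 178 at E14.5 and 131 and 126 at E11.5 (0.57 ± 0.19, adjusted p = 0.057). It passed, as higher, in 5 of the 13 alternatives. Fzd5, with 84.9 and 85.9 at E14.5 and 55.5 and 52.1 at E11.5 (0.56 ± 0.25), and Fzd10, with 77.8 and 127 at E14.5 and 63.7 and 68.1 at E11.5 (0.52 ± 0.27), had no overlap between groups and did not pass. A second Fzd5 probe set, too dim to be tested, ran the other way, with means of 4.94 at E14.5 and 25.5 at E11.5. Fzd2, a broadly expressed receptor, had means of 940 at E14.5 and 860 at E11.5 (0.13 ± 0.14). Fzd4 (0.24 ± 0.27) and Fzd6 (-0.13 ± 0.27) did not pass either.

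**Figure D3:**
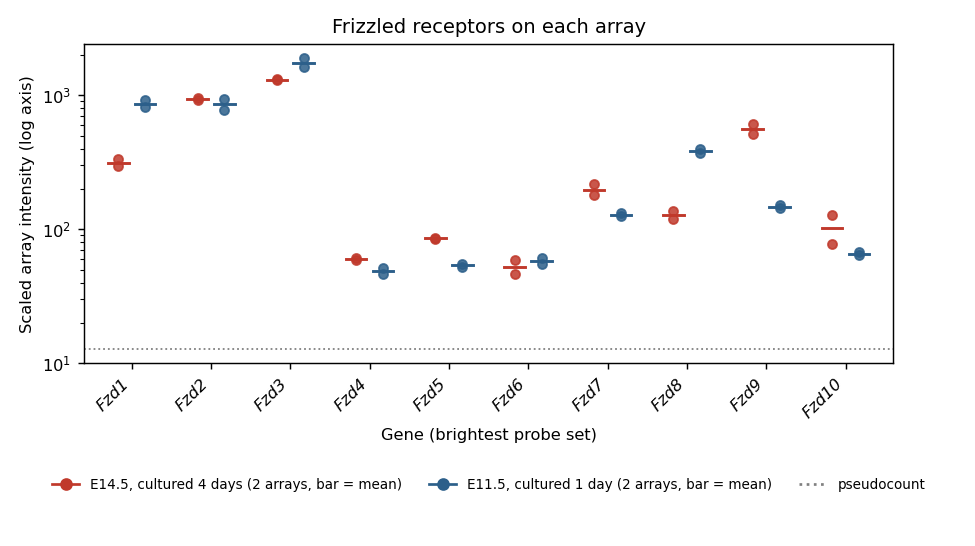
Scaled intensity of the 10 Frizzled receptors on each array, on a log axis, with bars at the group means and a dotted line at the pseudocount. Both E14.5 arrays lie above both E11.5 arrays for Fzd9, and also for Fzd4, Fzd5, Fzd7 and Fzd10, which did not pass. They lie below both E11.5 arrays for Fzd1, Fzd3 and Fzd8. Groups do not overlap in 80% of the 10 genes, against 65.6% of all tested genes. Heights of different genes cannot be compared.

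The promoter of Fzd9, the receptor that rose, is at chr5:135251048-135251297 on the minus strand and is read in the direction of the gene. It is rich in G and C, which make up 76.4% of its 250 bases, against 48.4% in that of Wnt8b, 66.8% in that of Rspo1 and a median of 52.4% over 32851 promoter windows. This is not particular to Fzd9. The windows of Fzd5 and Fzd10, which did not pass, also have 76.4%, and those of all members that did not pass have a median of 71.2%. None of the letters searched were found in the Fzd9 window.
Fzd9: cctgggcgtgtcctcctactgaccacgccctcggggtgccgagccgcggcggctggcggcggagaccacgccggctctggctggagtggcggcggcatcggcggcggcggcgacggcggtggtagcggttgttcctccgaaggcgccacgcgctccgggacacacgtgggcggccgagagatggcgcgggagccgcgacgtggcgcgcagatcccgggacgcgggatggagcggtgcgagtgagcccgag

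None of the tested members among the co-receptors, Ror receptors and dishevelled proteins passed the test, where 27.8% of all tested genes did. These lists are too short to set them apart from that share. The co-receptor Lrp6 had signals of 308 and 431 at E14.5 and of 296 and 335 at E11.5, which overlap (0.20 ± 0.19). Its partner Lrp5 was too dim to be tested, with means of 8.15 at E14.5 and 14.3 at E11.5. Of the tyrosine kinase receptors for Wnt5a, Ror1 had means of 37.1 at E14.5 and 31.3 at E11.5 (0.11 ± 0.42) and Ror2 was left out, with 19.5 and 31.7 in the same order. Dvl1 and Dvl2, the dishevelled proteins that relay the signal, had differences of -0.13 ± 0.14 and -0.38 ± 0.18, with E14.5 below E11.5 on all arrays of both genes. Dvl3 was too dim to be tested, with means of 5.62 at E14.5 and 22.3 at E11.5.

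All 5 genes of the destruction complex and beta-catenin were bright in both groups and did not pass, where 27.8% of all tested genes passed. A list of 5 is too short to be set apart from that share. Ctnnb1, which encodes beta-catenin, had 5744 and 5913 at E14.5 and 5259 and 4562 at E11.5 (0.25 ± 0.12, adjusted p = 0.17). Its sign turned under quantile normalization (-0.10). Apc, the scaffold of the complex, had 2070 and 2632 at E14.5 and 1930 and 2011 at E11.5 (0.24 ± 0.14). The kinase Gsk3b had 1699 and 2036 at E14.5 and 2054 and 2202 at E11.5 (-0.19 ± 0.13), and all 6 of its probe sets had a negative difference. Axin1, the other scaffold, had means of 270 at E14.5 and 278 at E11.5 (-0.04 ± 0.17).

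Axin2, a scaffold that is itself a direct target of beta-catenin and is widely used as a readout of the pathway, had 219 and 141 at E14.5 and 214 and 193 at E11.5. The E14.5 arrays lie on either side of the E11.5 arrays, and Axin2 did not pass (-0.20 ± 0.22, adjusted p = 0.58). Without E14.5 replicate 2 its sign turned (0.10). Nkd1, an inhibitor of dishevelled that is also induced by the pathway, had 46.7 and 49.0 at E14.5 and 59.9 and 78.1 at E11.5 (-0.42 ± 0.27, adjusted p = 0.31). Its other 3 probe sets had differences of 0.39, 0.06 and 0.79, so that its probe sets disagree in sign and none passed.

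TCF/LEF factors moved in opposite directions. Lef1, a factor that activates targets with beta-catenin and is a target itself, fell to 34.7 and 44.2 at E14.5, against 149 and 133 at E11.5. The groups lay far apart, with a 3.57-fold lower mean (-1.56 ± 0.24, adjusted p = 0.0012). A second Lef1 probe set, too dim to be tested, had means of 9.63 at E14.5 and 33.4 at E11.5. Tcf7l1, which is known mainly as a repressor of the same targets, had 342 and 353 at E14.5 and 209 and 233 at E11.5, a 1.57-fold higher mean (0.63 ± 0.16, adjusted p = 0.018). Its second probe set was also higher (1.33 ± 0.36), and with both averaged the difference was 0.98. The call was lost without E14.5 replicate 2 (0.60), without E11.5 replicate 1 (0.55) and without a variance trend. Tcf7l2 had means of 136 at E14.5 and 110 at E11.5 (0.27 ± 0.21), did not pass, and turned sign with its probe sets averaged (-0.25).

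Promoters of Lef1, Tcf7l1 and Axin2 are shown because these genes bind beta-catenin or are its targets. Lef1 has 4 annotated starts, and the window shown, chr3:131156044-131156293 on the plus strand, is the only one of the 4 with a match. It belongs to the start furthest downstream, and the windows of the starts upstream of it have none. There CTTTGTA lies on the opposite strand, 147 bases before the start, and the capitals mark it. Tcf7l1 is at chr6:72789046-72789295 on the minus strand and Axin2 at chr11:108920099-108920348 on the plus strand. Neither has a match, nor has the window of Nkd1. Only the 250 bases before a start were searched, so sites elsewhere in or near these genes would not be seen.
Lef1: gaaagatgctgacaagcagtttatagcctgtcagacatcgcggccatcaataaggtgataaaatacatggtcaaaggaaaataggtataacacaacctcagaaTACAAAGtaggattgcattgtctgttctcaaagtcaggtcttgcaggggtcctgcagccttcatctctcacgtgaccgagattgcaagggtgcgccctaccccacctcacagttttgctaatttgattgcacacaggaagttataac
Tcf7l1: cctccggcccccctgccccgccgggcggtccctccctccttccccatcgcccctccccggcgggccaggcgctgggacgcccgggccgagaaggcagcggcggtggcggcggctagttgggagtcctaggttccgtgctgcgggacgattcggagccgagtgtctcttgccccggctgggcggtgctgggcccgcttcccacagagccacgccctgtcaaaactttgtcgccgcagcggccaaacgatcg
Axin2: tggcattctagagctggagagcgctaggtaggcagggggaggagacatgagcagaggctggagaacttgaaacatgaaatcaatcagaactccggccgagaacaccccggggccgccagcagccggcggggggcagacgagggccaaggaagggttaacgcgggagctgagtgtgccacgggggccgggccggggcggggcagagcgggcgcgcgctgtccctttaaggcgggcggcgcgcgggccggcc

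Promoter windows were at hand for 26 of the 40 genes. Of these 4 held at least 1 of the 4 letterings: Lef1 and Tcf7l2 at 1 of their starts, Fzd7 and Dkk1. That is 15.4% of the 26 genes, and 16.8% of all 27025 genes with a window held one. Over all windows the share was 3.21% for CTTTGAT, 5.03% for CTTTGTT, 4.46% for CTTTGAA and 3.20% for CTTTGTA, counting both strands. G and C made up a median of 66.4% of the pathway's windows.

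Secreted antagonists also went both ways. Sfrp1, which binds Wnts outside the cell, fell to 518 and 467 at E14.5, against 1160 and 1125 at E11.5, a 2.32-fold lower mean (-1.20 ± 0.13, adjusted p = 0.00017). The groups lay well apart, and 4 of its 5 probe sets passed as lower, while the fifth did not pass (-0.56 ± 0.21). Dkk3, a divergent member of the Dickkopf family, had 109 and 113 at E14.5, against 49.8 and 33.6 at E11.5, a 2.67-fold higher mean (1.20 ± 0.26, adjusted p = 0.0080). Its other probe set rose too (1.07 ± 0.28). Sfrp2 had 414 and 371 at E14.5 and 466 and 508 at E11.5 and did not pass (-0.30 ± 0.15). Dkk1, an inhibitor of Lrp5 and Lrp6, and Wif1, which binds Wnts, were too dim to be tested, with means of 18.0 and 13.5 at E14.5 and of 5.17 and 5.07 at E11.5.

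**Figure D4:**
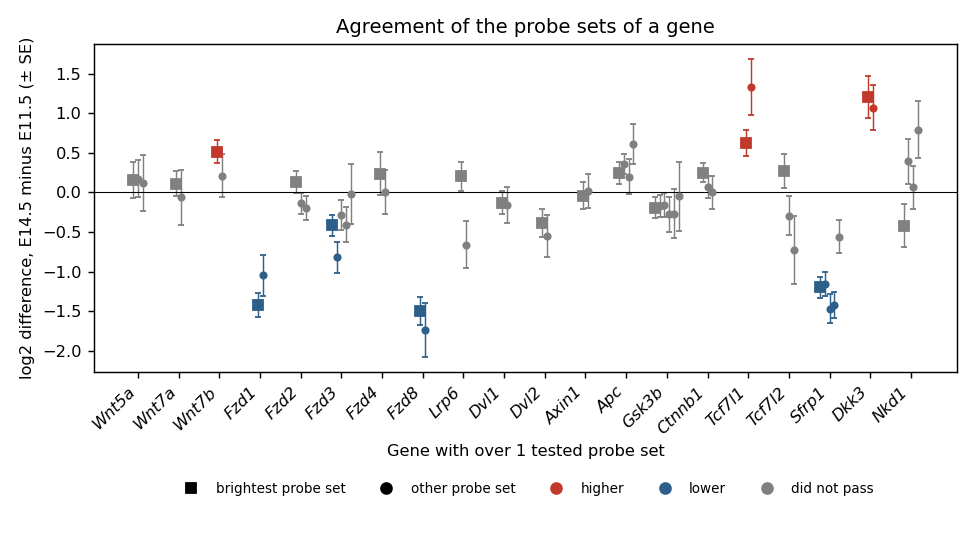
Differences (log2, E14.5 minus E11.5, ± SE) of every tested probe set for the 20 genes that had over 1, with squares for the brightest probe set of a gene. Probe sets of 14 genes share 1 sign, those of Wnt7a, Fzd2, Lrp6, Axin1, Tcf7l2 and Nkd1 do not, and no gene has probe sets that passed in opposite directions.

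A further 80 genes of the pathway, chosen with earlier results of these data known, were counted alongside. The test covered 62 of them and called 14 lower and 5 higher, or 30.6% together, near the 27.8% of all tested genes. Of those named below, the calls of Porcn, Frzb, Nkd2, Cby1, Tle4, Ccnd1, Ccnd2, Vangl2 and Gpc4 were lost without a variance trend, and those of Sfrp5, Frzb, Dkk2, Nkd2, Tle4, Ccnd1, Ccnd2, Vangl2 and Gpc4 without a filter on dim probe sets. None of the 5 tested ligands passed, a list too short to be set apart from the 27.8% of all tested genes. Wnt5b, a close relative of Wnt5a, had means of 62.4 at E14.5 and 43.5 at E11.5 (0.42 ± 0.29), and Wnt11, a ligand known for signalling without beta-catenin, had 56.8 and 36.7 in the same order (0.47 ± 0.31). Porcn, the enzyme that attaches the lipid Wnts need for secretion, rose to 249 and 258 at E14.5, against 164 and 119 at E11.5 (0.80 ± 0.20, adjusted p = 0.015). It did not pass without E11.5 replicate 2 either (0.59).

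Of 7 other antagonists tested, 1 was higher and 2 were lower (42.9% called, against 27.8% of all tested genes). Of these, Sfrp5 was tested only through its E14.5 signal and Dkk2 only through its E11.5 signal, the other mean lying under the filter, so their calls are descriptions. Sfrp5 had 39.3 and 90.9 at E14.5, against 13.5 and 4.70 at E11.5 (1.78 ± 0.44, adjusted p = 0.014, and 1.03 with the median as pseudocount). Frzb, another Wnt-binding relative, was lower, with 46.5 and 9.75 at E14.5 and 76.2 and 96.9 at E11.5 (-1.43 ± 0.43, adjusted p = 0.035). Its call was also lost without E14.5 replicate 2 (-0.74), without E11.5 replicate 2 (-1.28) and with an eighth of the pseudocount. Dkk2, a Dickkopf protein, was lower with means of 12.7 at E14.5 and 53.6 at E11.5 (-1.36 ± 0.36). The call of Dkk2 was also lost without E11.5 replicate 1 (-1.57), and with the median as pseudocount its difference was -0.80 and that of Frzb -0.92.

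Inside the cell, 2 of 11 destruction complex and kinase genes were lower, or 18.2%, near the 13.6% of all tested genes. Apc2, a relative of Apc that is known from neurons, fell to 158 and 136 at E14.5, against 406 and 433 at E11.5 (-1.44 ± 0.17, adjusted p = 0.00022), and the phosphatase subunit Ppp2r5e was lower too (-0.95 ± 0.15, and -0.43 with its probe sets averaged). Dact1, a regulator of dishevelled, fell to 230 and 190 at E14.5, against 464 and 641 at E11.5 (-1.33 ± 0.19, adjusted p = 0.00075). Cby1, a beta-catenin antagonist, was higher (0.59 ± 0.15), a call also lost without E14.5 replicate 1 (0.56). Nkd2, a relative of Nkd1, was tested only through its E11.5 signal (means of 18.7 at E14.5 and 62.6 at E11.5). It was lower (-1.35 ± 0.41), but also lost its call without E14.5 replicate 1 (-0.81), E11.5 replicate 1 (-0.18) or E11.5 replicate 2 (-0.08). The values -0.18 and -0.08 come from another probe set of Nkd2, which was then the brightest. The call was lost as well with probe sets averaged (-0.74) or with an eighth of the pseudocount. With the median as pseudocount the difference was -0.81.

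Of 9 nuclear partners tested 2 were lower and none was higher (22.2% called, against 27.8% of all tested genes). Bcl9, a co-activator of beta-catenin, was lower (-0.73 ± 0.14, adjusted p = 0.0047). So was the co-repressor Tle4 (-0.54 ± 0.15), whose call was also lost under median scaling and without E14.5 replicate 1 (-0.46) or E11.5 replicate 1 (-0.35). Of 12 planar polarity and non-canonical genes 4 were lower and none was higher, or 33.3% called, against 27.8% of all tested genes. Celsr3, a cadherin of growing axons, fell to 101 and 55.2 at E14.5, against 344 and 468 at E11.5 (-2.24 ± 0.26, adjusted p = 0.00021), and its relative Celsr2 fell by 1.04 on the log2 scale. Vangl2, a core planar polarity gene named here after its values were seen, was lower by less (-0.44 ± 0.14), a call also lost under median scaling and without E14.5 replicate 1 (-0.45), E14.5 replicate 2 (-0.43) or E11.5 replicate 2 (-0.32). Gpc4, a heparan sulphate proteoglycan, was lower (-0.51 ± 0.15), a call also lost under quantile normalization, under median scaling and without E14.5 replicate 1 (-0.55), E14.5 replicate 2 (-0.47) or E11.5 replicate 2 (-0.43). Neuronal markers moved with these genes: 12 of 12 were lower at E14.5, against 13.6% of all tested genes. Of these, Tbr1 was tested only through its E11.5 signal, so its call is a description. The 12 markers had summed signals of 2737 and 2380 at E14.5 and 14824 and 15478 at E11.5, none listed at 0. The part of neurons in the falls of Apc2, Dact1, Celsr2 and Celsr3 was not tested.

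Genes outside the members that are commonly cited as beta-catenin targets gave no single direction, with 2 of 10 tested higher and 2 lower (40% called, against 27.8% of all tested genes). Sox9, a factor of glial precursors, rose to 942 and 1498 at E14.5, against 386 and 519 at E11.5 (1.38 ± 0.22, adjusted p = 0.0013), and Myc, a growth regulator, rose to 640 and 675 at E14.5, against 222 and 288 at E11.5 (1.33 ± 0.17, adjusted p = 0.00032). The cyclin Ccnd1 was lower, with 834 and 1052 at E14.5 and 2174 and 1334 at E11.5 (-0.85 ± 0.21, adjusted p = 0.015), and without E11.5 replicate 1 the difference was -0.50. Ccnd2, another cyclin, named here after its values were seen, was lower by a small margin (-0.39 ± 0.12, adjusted p = 0.045), a call also lost under median scaling and without E14.5 replicate 1 (-0.48), E14.5 replicate 2 (-0.28) or E11.5 replicate 1 (-0.39). Id2 (0.20 ± 0.14), an inhibitor of differentiation, and Apcdd1 (-0.26 ± 0.18), a membrane inhibitor of Wnt, did not pass the test. Glial markers differed with the genes that rose. Astrocyte markers were higher in 8 of 8 tested, with sums of 19546 and 15358 at E14.5 and 3414 and 4257 at E11.5, and markers of oligodendrocyte precursors in 7 of 7, with sums of 18286 and 20205 at E14.5 and 902 and 682 at E11.5. Microglial markers were higher in 6 of 7, with sums of 1455 and 1472 at E14.5 and 195 and 218 at E11.5. Of all tested genes 14.3% were higher. Gfap, Aqp4, S100b, Cspg4, Gpr17, C1qa, C1qb, C1qc and Fcer1g were tested only through their E14.5 signal, so their calls are descriptions. The part of astrocytes, oligodendrocyte precursors and microglia in the differences of Fzd9, Tcf7l1, Dkk3, Sfrp5, Sox9 and Myc was not tested.

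**Figure D5:**
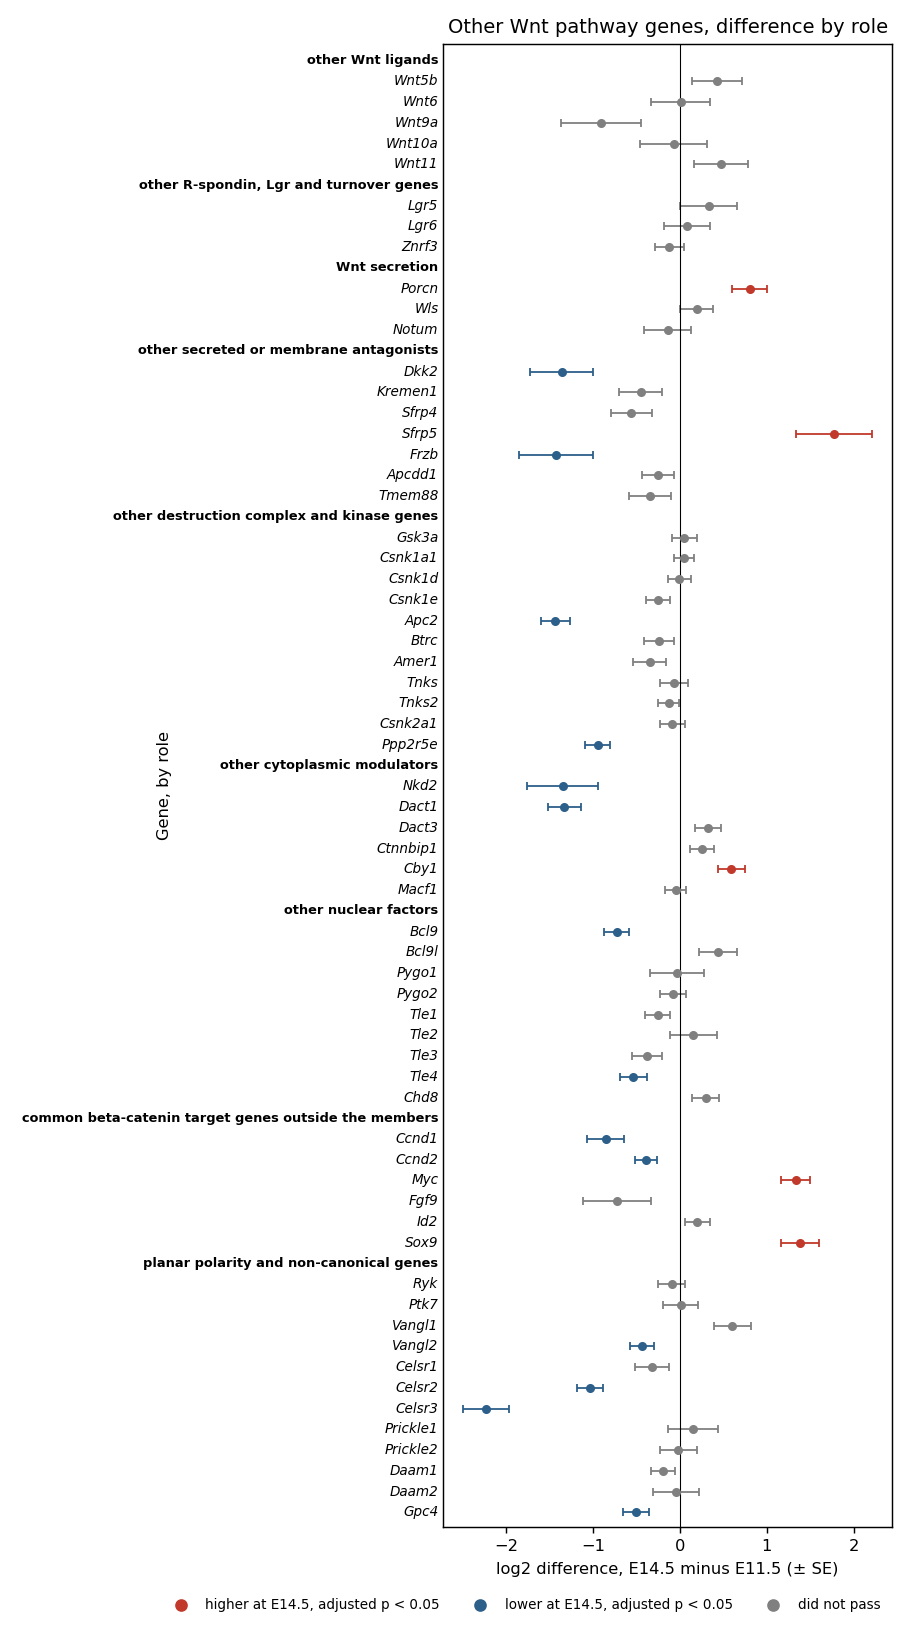
Differences of the 62 tested genes of the pathway outside the members, each drawn once, grouped by role. Points are log2 differences, E14.5 minus E11.5, with SE. Celsr3 lies lowest at -2.24 and Sfrp5 highest at 1.78, and 43 of the 62 did not pass the test.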

How the data were processed

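Gene expression was measured on 4 arrays, 2 of E14.5 and 2 of E11.5 cells, grouped by the sample titles. GCOS turned each array into a linear intensity for every probe set, per the submitters' processing notes, and those intensities are what was deposited. No source used here gives the version or settings of GCOS. Detection calls did not enter. Of 45101 probe sets 64 controls were set aside, and 34945 were annotated to 1 gene, 932 to several and 9160 to none.

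Because trimmed means differed up to 2.43-fold, each array was multiplied by 1 factor to a common 2% trimmed mean. Probe sets with a mean under the 40th percentile (27.3) were left out, leaving 27022. The pseudocount of 12.8 is the 25th percentile. It shrinks differences of dim genes. Groups were compared with limma 3.58.1 in R 4.3.3 (lmFit, eBayes with a variance trend), checked on simulated data. The variance of a probe set had 2 degrees of freedom from its own arrays and 7.99 from probe sets of like signal. The number of arrays limits the precision.

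The genes, the lists and the tests were chosen with earlier results of these data known. All 40 members are accounted for. Of the other pathway genes the text names up to 3 per list by size among those that passed, and of ligands and targets up to 2 that did not, by signal. Promoters beyond those of Axin2, Lef1 and Nkd1, and the letters CTTTGAA and CTTTGTA, were added after values were seen. Scaling, filter, pseudocount, variance trend, probe set, replicate block and each array left out were tried as 13 alternatives.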

Additional observations from a re-analysis of the deposited data

How the results depend on the processing

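Of the 14 Wnt pathway genes that passed, 11 passed in the same direction under all 13 alternatives. Those that did not were Wnt7b, Fzd3 and Tcf7l1, with no sign turned. The 11 include Wnt8b and the 3 R-spondins, which entered the test only through their E11.5 signal. Their direction was set by that, so their part in the count is a description. The matching count over all genes was not made. The number of genes of the pathway that were higher was 4, and it was 2 without the variance trend, 3 to 5 under the other alternatives that keep all arrays and 2 to 4 with 1 array left out, 2 being without E11.5 replicate 1. Those that were lower numbered 9 or 10 under every alternative run. Over all genes, 1150 were higher and 1101 lower without the variance trend, against 1850 and 1756 with it; with 1 array left out they ran from 1414 to 1926 and from 1453 to 1746. With the replicate number as a block, 5 genes of the pathway were higher and 10 lower, Fzd7 being the added one (0.57), Ccnd2 outside the members no longer passed (-0.39), and over all genes 2016 were higher and 1933 lower. Deviations of equally numbered arrays from their group means correlated at 0.0041, so equal numbers were not taken as pairs. Of the 21 genes that did not pass, 12 turned sign under at least 1 alternative. Axin1 turned under quantile normalization (0.0086) and median scaling (0.025), and Ctnnb1 under quantile normalization (-0.10). With probe sets averaged the signs of Fzd2 (-0.067), Lrp6 (-0.23), Tcf7l2 (-0.25) and Nkd1 (0.21) turned. With 1 array left out, differences ran from -0.011 to 0.51 for Wnt3a, -0.0004 to 0.22 for Wnt7a, -0.0048 to 0.27 for Fzd2, -0.26 to 0.0061 for Fzd6, -0.032 to 0.44 for Lrp6, -0.15 to 0.63 for Ror1, -0.47 to 0.059 for Dvl1, -0.14 to 0.0575 for Axin1, -0.49 to 0.10 for Axin2, -0.045 to 0.42 for Tcf7l2 and -0.45 to 0.59 for Nkd1. With each array left out, the brightest probe set of a gene was picked anew. Both ends for Dvl1, the lower for Tcf7l2 and the upper for Nkd1 come from a probe set other than the one used above. They therefore do not show the effect of the array alone. The cause of the other changes was not tested. With 1 array left out, the lone array of a group is assumed to vary like the other group.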

Other observations

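Sp5, a transcription factor that beta-catenin is known to induce, was left out by the filter and was picked out here after its values were seen. Its scaled signals were 3.61 and 6.86 at E14.5, against 59.0 and 37.3 at E11.5, with no overlap. When every gene was tested without a filter, Sp5 was lower at E14.5 (limma, -1.74 ± 0.37, adjusted p = 0.026 over all probe sets). Of the 14 Wnt ligands outside the members, 9 were left out by the filter, and all 9 had adjusted p-values above the threshold in the fit without one. The nearest was Wnt16, with 14.7 and 51.1 at E14.5 and 4.16 and 7.03 at E11.5 (1.19 ± 0.45, adjusted p = 0.16). The 5 members left out by the filter did not pass in that fit either, with adjusted p-values from 0.16 for Dkk1 to 0.57 for Lrp5.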
